A study of Mus musculus with 22 samples.

Results

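Cytosolic ribosomal protein genes encode the proteins of the 2 subunits of the cytoplasmic ribosome, and their transcripts were followed here in cell fractions of EMT6 tumours. Genes were taken by name: symbols of the form Rpl or Rps with a number, and Rpsa, Rplp0, Rplp1 and Rplp2, without the Rps6k kinase genes. Each of the 2 expression tables, 1 per fraction, lists 85 such symbols among 24353 genes. A gene was kept in a fraction when its level reached 1 FPKM (fragments mapped to a gene, per unit of transcript length and of library size) in at least 2 libraries. This left 81 genes of 10780 tested in the CD45-negative fraction and 82 of 10340 in the CD45-positive fraction, with 81 kept in both. By symbol, 49 of the 81 genes were assigned to the large (60S) subunit and 32 to the small (40S) subunit, and the CD45-positive fraction adds Rps4l to the latter. The assignment follows the name alone, also for paralogs and genes of like sequence.

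EMT6 is a mammary carcinoma line of BALB/c mice. Per the labels, 200000 cells were placed into both inguinal mammary fat pads of mice aged 5 to 6 weeks, and treatment began when tumours could be felt, at about day 5 to 7. Vehicle-treated tumours served as controls for JQ1 alone, JQ1 with anti-PD-L1, JQ1 with paclitaxel, and all 3 drugs (the 3-drug group). JQ1, an inhibitor of BET bromodomain proteins, was given by gavage each day at 50 mg/kg. Paclitaxel stabilises microtubules, and anti-PD-L1 blocks the ligand of PD-1, an inhibitory receptor of T cells; each was given at 10 mg/kg in 2 injections a week. Every group given paclitaxel or anti-PD-L1 was also given JQ1. Dissociated tumours were separated with anti-CD45 beads into a CD45-negative fraction (3 libraries each of JQ1 with paclitaxel and the 3-drug group, 2 of each other group) and a CD45-positive fraction (2 libraries of each group). The labels give 1 mouse code for both tumours of a group in 3 groups (vehicle; JQ1; JQ1 with anti-PD-L1), so that their p-values may measure only the spread between tumours of 1 animal.

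Library numbers below follow the order of deposition and pair no samples. Summed FPKM of 12 pan-leukocyte markers ran from 118 to 359 in CD45-negative libraries and from 1337 to 2327 in CD45-positive ones, and that of 8 epithelial markers from 299.7 to 894 and from 13.6 to 112. The CD45-negative fraction also held fibroblast markers (10 genes, 1329 to 2953 FPKM) and macrophage and monocyte markers (11 genes, 1111 to 4309 FPKM, against 16795 to 28845 in the CD45-positive fraction). Markers of red blood cells (8 genes) summed to 332 and 109.8 FPKM in the CD45-negative vehicle libraries and to 0.707 to 67.4 in the treated ones, and to 38.1 and 17.2 against 0.135 to 10.8 in the CD45-positive fraction; their part in the comparisons with vehicle was not tested. In bulk samples of this kind, fewer cells of a type and less RNA per cell cannot be told apart. Relative sequencing depth, read from the steps between low values, had a range of 0.547 to 1.79 over CD45-negative libraries and of 0.629 to 1.71 over CD45-positive ones, and read totals are not known.

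Each ribosome holds 1 copy of nearly every ribosomal protein, so that the genes must be expressed in concert, and they are among the most abundant transcripts of growing cells. The small subunit reads the messenger RNA, the large subunit forms peptide bonds, and the P-stalk of the large subunit (Rplp0, Rplp1 and Rplp2) recruits the translation factors. Transcription of these genes is linked to growth and to Myc. Their transcripts typically start with a C followed by an unbroken run of pyrimidines, the 5′ terminal oligopyrimidine (TOP) tract, through which mTOR signalling controls their translation. Free Rpl5 and Rpl11 bind Mdm2 and thereby stabilise p53 when ribosome assembly fails.

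The TOP tract is the sequence feature for which these genes are known, and it was looked for at the annotated start in RefSeq (GRCm38.p6). The deposited values were made on mm9, so the positions below serve only for the sequences. A start was counted when its first base was C and the next 4 bases or more were C or T, on the strand of the gene. This held for 14 of the 64 ribosomal protein genes with a start in the table (21.9%), for 799 of 26961 other genes (2.96%), and for 6 of 14 other genes known for TOP tracts (42.9%), such as elongation factors. A gene without a match only lacks these letters at this annotated base. The 5 starts below were chosen because their genes are described further on; each is 30 bases, with the tract in capitals beginning at the annotated first base.
Rpl35, chr2:39005117-39005146, minus strand: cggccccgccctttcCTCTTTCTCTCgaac
Rps10, chr17:27635230-27635259, minus strand: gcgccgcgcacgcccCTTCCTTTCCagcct
Rps15a, chr7:118116133-118116162, minus strand: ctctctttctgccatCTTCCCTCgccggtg
Rplp2, chr7:141447636-141447665, plus strand: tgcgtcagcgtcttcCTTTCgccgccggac
Rps27, chr3:90213634-90213663, minus strand: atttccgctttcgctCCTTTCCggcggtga

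Within each fraction the levels of single ribosomal protein genes differed widely, although FPKM is a value per length. In the CD45-negative fraction Rpl13 was highest at 1129 ± 208 FPKM (SD over 12 libraries), with a lowest value of 881, a median of 1071 and a highest of 1533. Rpl32 followed at 879 ± 149.96 FPKM, Rpl41 at 864 ± 159 and Rpl35 at 749 ± 132, all of the large subunit. At the low end stood Rpl32l at 10.4 ± 2.28 FPKM, Rpl26 at 11.1 ± 7.05, Rps15a at 13.8 ± 2.62 and Rpl22 at 14.99 ± 2.94. Rpl26 and Rps15a are core proteins of the ribosome, whereas Rpl32l is a gene with a sequence like that of Rpl32.

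In the CD45-positive fraction the same gene led, with Rpl13 at 485 ± 67.5 FPKM (SD over 10 libraries, lowest 390, median 482, highest 631). Rpl32 followed at 455 ± 51.5 FPKM, Rps9 at 452 ± 44.6 and Rpl41 at 438 ± 64.5, so that the first 4 genes lay within each other's spread. The lowest were Rps4l at 1.17 ± 0.697 FPKM, Rpl26 at 2.02 ± 2.98, Rpl32l at 5.73 ± 1.77 and Rps15a at 7.53 ± 1.28. The spread of Rpl26 exceeded its mean, and this gene is taken up with its copy below.

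Several members have a paralog of restricted expression, and these paralogs were those near or below the level needed to be kept. Rpl10l, known from testis, was listed at 0 in all 22 libraries, while Rpl10 had 411 ± 57.0 FPKM in the CD45-negative and 245 ± 16.2 in the CD45-positive fraction. Rpl39l, another testis paralog, reached at most 0.665 and 0.513 FPKM, and Rpl3l, known from muscle, at most 0.346 and 0.137. Rps4l, a paralog of the small-subunit gene Rps4x, reached 1 FPKM in 1 of 12 CD45-negative libraries, which left it out, and in 5 of 10 CD45-positive libraries. Rps4l values in CD45-positive libraries were 0.967 and 0.725 in vehicle, 0.242 and 0.650 in JQ1, 1.41 and 0.618 in JQ1 with anti-PD-L1, 2.52 and 1.97 in JQ1 with paclitaxel, and 1.03 and 1.56 in the 3-drug group. Both libraries of JQ1 with paclitaxel lay above every other, in a range where few reads stand behind each value, and the gene was not called in any comparison.

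Ribosomal protein genes together made up 5.28% to 7.69% of summed FPKM in CD45-negative libraries and 3.40% to 4.59% in CD45-positive ones. In the CD45-negative fraction the share was 7.51% and 6.66% in vehicle, 6.13% and 7.46% in JQ1, 7.17% and 7.69% in JQ1 with anti-PD-L1, 6.56%, 6.80% and 6.73% in JQ1 with paclitaxel, and 6.27%, 5.28% and 6.93% in the 3-drug group. Every group overlapped with vehicle. Among CD45-positive libraries the share was 4.59% and 3.71% in vehicle, 4.34% and 4.08% in JQ1, 3.41% and 3.60% in JQ1 with anti-PD-L1, 3.56% and 3.67% in JQ1 with paclitaxel, and 3.41% and 3.40% in the 3-drug group. There all 6 libraries that received anti-PD-L1 or paclitaxel lay below both vehicle and both JQ1 libraries. The vehicle libraries differed from each other by more than the lower vehicle library differed from any of these 6. The part of the sum that came from small-subunit genes varied little, with 40.03% to 41.9% in CD45-negative libraries and 41.4% to 43.9% in CD45-positive ones.

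**Figure D1:**
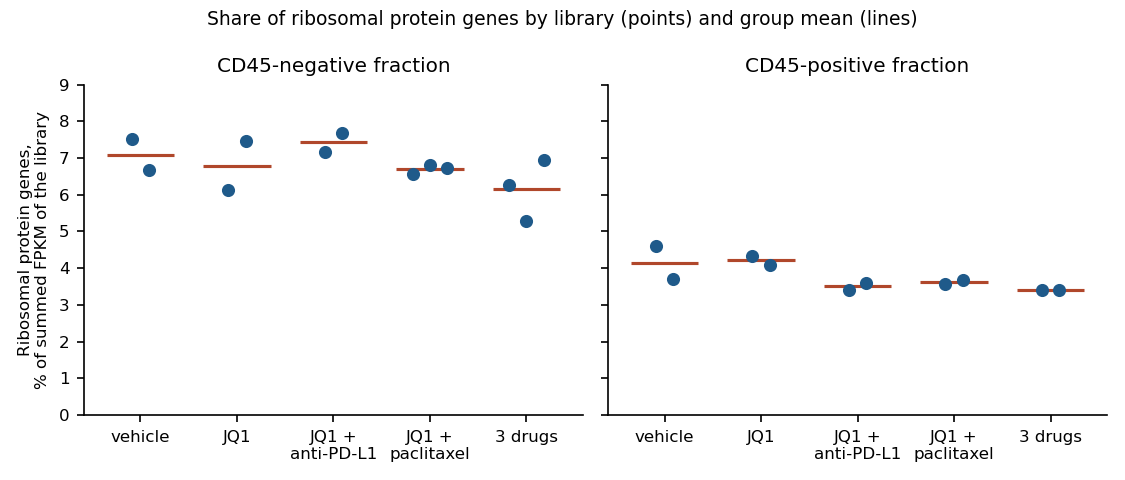
Share of the ribosomal protein genes in the summed FPKM of each library (vertical axis, percent) by treatment, in the CD45-negative (left) and the CD45-positive fraction (right); points are libraries and lines are group means. The 12 CD45-negative libraries sit between 5.28% and 7.69% and the 10 CD45-positive libraries between 3.40% and 4.59%.

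Single libraries moved nearly the whole set. In the CD45-negative fraction JQ1 library 1 lay below JQ1 library 2 for 81 of 81 genes, and its median difference from the median of the other libraries was -0.33 on the log2 scale, against -0.04 for all tested genes and -0.26 for 1051 other genes of like level. Library 2 of the 3-drug group was the lowest of all 12 for 56 of 81 genes and below both group mates for 78, with a median difference of -0.49, against -0.05 for all tested genes and -0.14 for genes of like level. The mitochondrial ribosomal protein genes, which serve another ribosome, were lower in the same libraries, by medians of -0.29 and -0.35 over 77 genes. Several sums stood apart in these libraries: 4 nuclear RNAs (Malat1, Neat1, Meg3 and Kcnq1ot1) summed to 531 FPKM in JQ1 library 1 and to 65.9 to 281 in the others. In library 2 of the 3-drug group 8 B cell markers summed to 21.2 FPKM (0.900 to 7.66 in the others) and 10 T cell markers to 19.7 (0.705 to 6.11 in the others). Whether these differences had a part in the low values was not tested. Their partner CD45-positive libraries had shares of 4.34% and 3.40%, against 4.08% and 3.41% in their group mates.

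Of the CD45-positive libraries it was a control that stood apart. Vehicle library 1 was the highest of 10 for 52 of 82 genes, above vehicle library 2 for 78, and 0.30 above the median of the other libraries by its median gene, against -0.04 for all tested genes. Its nuclear RNA sum was 864 FPKM, against 71.6 to 342 in the others, and the part of this in its ribosomal protein values was not tested. Several results below are therefore also given without 1 of these 3 libraries. The contrasts of added drugs are not given without library 2 of the 3-drug group.

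The highest value of a gene was a median of 1.79 times its lowest over the CD45-negative libraries (81 genes) and 1.51 times over the CD45-positive libraries (82 genes). A few genes departed much further from the median member. The range of that departure over the CD45-negative libraries was 4.36 on the log2 scale for Rpl26, 2.67 for Rps27, 2.12 for Rpl30 and 1.24 for Rpl34. In the CD45-positive fraction it was 3.51 for Rpl26, 1.76 for Rps4l, 1.68 for Rps27 and 1.15 for Rpl7l1.

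Rps27, Rpl34, Rpl30 and Rpl26 each have a near-identical copy elsewhere in the genome that the tables list as a gene of its own, so that reads could be given to either row. In the coding sequences of GENCODE M21 (GRCm38) Rps27 on chromosome 3 and Rps27rt on chromosome 9 were the same at all 252 bases. Rpl34 (chromosome 3) and Rpl34-ps1 (chromosome 6) differed at 2 of 351 bases, Rpl30 (chromosome 15) and Gm12191 (chromosome 11) at 1 of 345, and Rpl26 (chromosome 11) and Gm15772 (chromosome 5) at 2 of 435. The sequences below are shown because they hold a base that differs between a gene and its copy, for Rpl30 the only differing coding base. Bases outside the coding sequence were not compared. Each sequence is 30 coding bases with the differing base in capitals.
Rpl34, coding bases 117 to 146: gaaagcacctaaatcTgcatgtggcgtgtg
Rpl34-ps1, the same bases: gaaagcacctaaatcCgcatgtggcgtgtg
Rpl30, coding bases 81 to 110: cgtgctgggctacaaGcagactctgaagat
Gm12191, the same bases: cgtgctgggctacaaAcagactctgaagat
Rpl26, coding bases 162 to 191: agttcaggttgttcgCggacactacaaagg
Gm15772, the same bases: agttcaggttgttcgTggacactacaaagg

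Rps27 and its copy were high in different libraries. Among CD45-negative libraries Rps27 was 620 and 107 FPKM in vehicle, 337 and 469 in JQ1, 233 and 392 in JQ1 with anti-PD-L1, 589, 542 and 534 in JQ1 with paclitaxel, and 451, 144 and 483 in the 3-drug group. Rps27rt was 1.66 and 424 FPKM in vehicle, 77.4 and 143 in JQ1, 334 and 296 in JQ1 with anti-PD-L1, 4.96, 7.11 and 24.2 in JQ1 with paclitaxel, and 11.4, 236 and 8.17 in the 3-drug group. The 3 lowest values of Rps27 came with 3 of the 4 highest values of its copy, and the 2 control libraries stood at opposite ends. Rps27 alone spanned 5.82-fold, while the sum of both rows spanned 1.81-fold (380.0 to 688 FPKM), close to the median gene of the set. The copy took 0.267% to 79.9% of the sum. Among CD45-positive libraries Rps27 spanned 3.69-fold and the sum 2.01-fold, above the 1.51 of the median gene there. Summing moved the CD45-positive difference of Rps27 under JQ1 from 0.05 to 0.74 (limma adjusted p = 0.087). For anti-PD-L1 added, a contrast described further on, it turned the sign, from 0.37 to -0.48 (adjusted p = 0.11).

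For the other 3 pairs the row of the copy held most of the sum. Rpl34-ps1 had 81.0% to 91.2% of its sum, Gm12191 64.9% to 91.7% and Gm15772 85.2% to 99.999%, all in the CD45-negative fraction. Rpl30 alone spanned 5.16-fold and its sum 1.83-fold; Rpl34 spanned 2.82-fold and its sum 1.78-fold. Rpl26 was listed at 0.001 FPKM in JQ1 library 1 and at 0.0011 in library 2 of JQ1 with paclitaxel and otherwise reached 3.94 to 20.8, whereas its sum with Gm15772 stayed within 105 to 151 FPKM. The low level of Rpl26 in the ranking above is thus that of 1 row of a pair. In all, 30 of the 83 symbols found in the annotation share a run of 31 bases with another gene of the tables, and 13 share at least 50% of their runs. Among these 13 are Rpl22l1 (88.1%), Rps15a (75.3%) and Rps26 (52.1%), whose values were not summed with those of other rows.

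**Figure D2:**
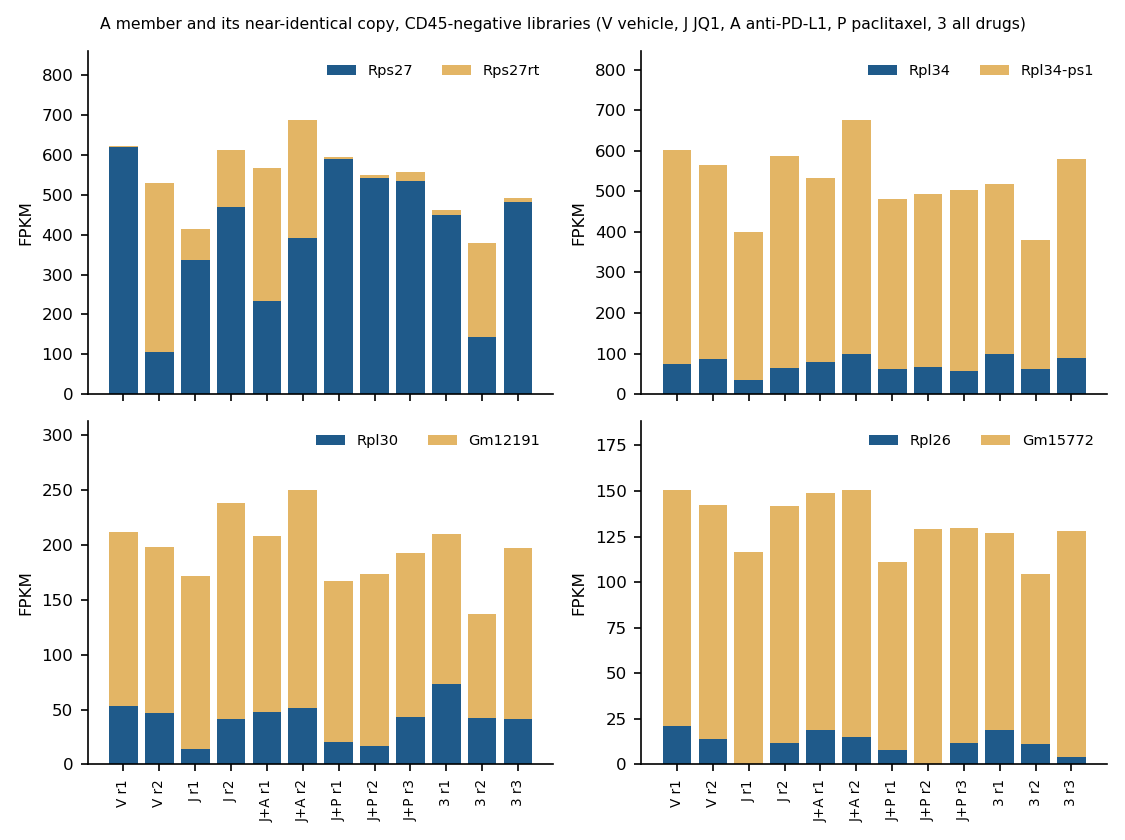
FPKM (vertical axes) of Rps27, Rpl34, Rpl30 and Rpl26 (blue) stacked with their near-identical copies (tan) in the 12 CD45-negative libraries, named by drug and library number. The height of the stack for Rps27 and Rps27rt stays between 380.0 and 688 FPKM while the blue part alone runs from 107 to 620.

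JQ1 alone was compared with vehicle first, which asks for the change under BET inhibition by itself. Of the CD45-negative genes 0 of 81 were called by limma at an adjusted p under 0.05, where 14.8% of all tested genes were called. An unadjusted p under 0.05 was found for 9 members and for 3326 of all 10780 tested genes. The median member was 0.21 lower on the log2(FPKM + 1) scale, the median of all tested genes 0.05 lower and that of other genes of like level 0.22 lower. This lower median rested on JQ1 library 1. Without that library it was 0.0054, and without JQ1 library 2 it was -0.44. Each of these fits keeps only 1 JQ1 library. The largest differences among members were those of genes with a copy, Rpl26 at -2.35 ± 1.15 (SE, limma adjusted p = 0.19) and Rpl30 at -0.99 ± 0.46 (adjusted p = 0.16), and summed with their copies these were -0.19 and -0.02. The highest were Rps27 at 0.63 ± 0.67 (adjusted p = 0.56; -0.19 when summed with its copy) and Rps20, of the small-subunit head, at 0.19 ± 0.19 (adjusted p = 0.51).

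CD45-positive cells under JQ1 gave 1 called gene of 82, lower, where 1.04% of all tested genes were called. That gene was Rpl26, at 2.85 and 5.15 FPKM in vehicle and 0.0007 and 0.0005 in JQ1. Its fitted difference of -2.28 ± 0.34 (SE, limma adjusted p = 0.026) depends on the added 1 FPKM and is no bound. Summed with Gm15772, which held 65.3 to 103 FPKM, the difference was -0.17 (adjusted p = 0.62), so that no call remained. The median member was 0.04 lower in the CD45-positive fraction; it was 0.09 higher without vehicle library 1 and 0.16 lower without vehicle library 2. By contrast 75 of 77 mitochondrial ribosomal protein genes had negative differences, with a median of -0.51. That median was -0.0041 for all tested genes and -0.18 for other genes at the level of the cytosolic members. By limma 0 of the 77 were called, while 37 of them and 2037 of all 10340 tested genes had an unadjusted p under 0.05. Both vehicle libraries, which share 1 mouse code, were high for this list, by medians of 0.378 and 0.305 over the other libraries. B cell markers were at 172 to 193 FPKM in the JQ1 libraries and at 3.999 to 62.3 in the others of this fraction, and their part in these values was not tested.

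JQ1 with anti-PD-L1 was, among the CD45-negative groups, the one whose median member lay closest to vehicle. There 0 of 81 genes were called, with 0.25% of all tested genes called. In limma 1 member had an unadjusted p under 0.05, as had 1554 of all 10780 tested genes. The median member differed by -0.0029, and 42 genes were lower and 39 higher. Rpl13, the gene of highest level, was at 1446 and 1533 FPKM in vehicle and at 1018 and 1230 with JQ1 and anti-PD-L1, a difference of -0.41 ± 0.21 (SE, adjusted p = 0.39) without overlap. Rps19, a small-subunit gene mutated in Diamond-Blackfan anaemia, was next at -0.34 ± 0.22 (adjusted p = 0.52). Rpl39, a small protein at the exit tunnel, was higher at 177 and 229 FPKM against 161 and 104, a difference of 0.63 ± 0.26 (adjusted p = 0.29), and Rps15a differed by 0.37 ± 0.23 (adjusted p = 0.50). None of these 4 differences passed the test.

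The CD45-positive fraction gave for JQ1 with anti-PD-L1 0 called genes of 82, with 0.029% of all tested genes called. In limma 5 members had an unadjusted p under 0.05, as had 735 of all 10340 tested genes. The median member was 0.13 lower and that of all tested genes 0.06 lower; it was 0.016 lower without vehicle library 1 and 0.25 lower without vehicle library 2. Rpl35, whose start carries an 11-base pyrimidine tract, was at 615 and 478 FPKM in vehicle and at 366 and 389 after JQ1 with anti-PD-L1, which did not overlap, and differed by -0.52 ± 0.17 (SE, adjusted p = 0.55). Rpl26 differed by -2.28 ± 0.34 (adjusted p = 0.10), and by -0.50 when summed with its copy (adjusted p = 0.58). Rps12 was 0.27 ± 0.20 higher (adjusted p = 0.87) and Rps10 0.21 ± 0.19 higher (adjusted p = 0.89), both with overlap.

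Under JQ1 with paclitaxel 3 large-subunit genes, Rpl4, Rpl6 and Rpl13, fell among CD45-negative cells. Of 81 genes 3 fell and 0 rose, where 17.6% of all tested genes were called. Rpl4 was at 510.3 and 583 FPKM in vehicle and at 346, 358 and 368 with JQ1 and paclitaxel, a fall by 0.61 on the log2 scale with an SE of 0.16 (limma adjusted p = 0.022). Rpl6 was at 200.01 and 215 FPKM in vehicle and at 135, 139 and 142 in the treated tumours, a difference of -0.58 ± 0.16 (adjusted p = 0.026). Rpl13 was at 1446 and 1533 FPKM against 961, 1004 and 1018, a difference of -0.58 ± 0.19 (adjusted p = 0.049). None of the 3 genes overlapped between the groups. None shares a run of 31 coding bases with another gene of the tables, although 3 (Rpl4), 17 (Rpl6) and 20 (Rpl13) annotated genes that the tables do not list do.

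These calls depended on single libraries. With 1 value per mouse code, which makes both vehicle libraries 1 value, no member was called. Without vehicle library 2, without library 1 or without library 2 of JQ1 with paclitaxel no member was called; without vehicle library 1 the only call was 1 gene that rose. Without both CD45-negative libraries of low ribosomal protein level, which add to the shared estimate of the spread, 14 genes were called, all lower. That fit keeps only 1 JQ1 library. The share of all tested genes called in it is not given here, so the count shows no excess of members. With all libraries kept, the median member was 0.17 lower and the median of all tested genes 0.07 lower, with 60 members lower. In the limma fit of all libraries 16 members and 3468 of all 10780 tested genes were below an unadjusted p of 0.05. Every treated library lay below every vehicle library for 44 of 81 genes (54.3%), which held for 29.2% of all tested genes, and 3 members (Rpl35a, Rps12 and Rps20) lay above without overlap, which held for 19.4% of all tested genes.

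Among CD45-positive cells 1 gene of 82 fell under JQ1 with paclitaxel, with 4.84% of all tested genes called, and that gene was again Rpl26. Rpl26 was at 2.85 and 5.15 FPKM in vehicle and at 0.0006 and 0.0010 in the treated libraries (limma adjusted p = 0.011), and its sum with Gm15772 differed by -0.45 (adjusted p = 0.17). Rpl4 was at 306 and 232 FPKM in vehicle and at 198 and 183 after treatment, a difference of -0.48 ± 0.18 (adjusted p = 0.17). Rpl6 differed by -0.47 ± 0.18 (adjusted p = 0.17) and Rpl13 by -0.44 ± 0.19 (adjusted p = 0.22). The 3 genes that fell in the CD45-negative fraction were thus lower here without overlap, yet did not pass the test. Pan-leukocyte markers summed to 1337 and 1465 FPKM in these treated libraries and to 1833 to 2327 in the others of the fraction. Endothelial markers (8 genes) summed to 66.6 and 92.7 FPKM against 4.42 to 30.9, and fibroblast markers (10 genes) to 149.5 and 259 against 37.8 to 119. The part of these 3 marker lists was not tested. The median member was 0.23 lower, against 0.09 lower for all tested genes and 0.19 lower for other genes of like level, and it was 0.09 lower without vehicle library 1 and 0.35 lower without vehicle library 2. All treated libraries lay below both vehicle libraries for 41 of 82 genes (50%), which held for 33.5% of all tested genes.

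**Figure D3:**
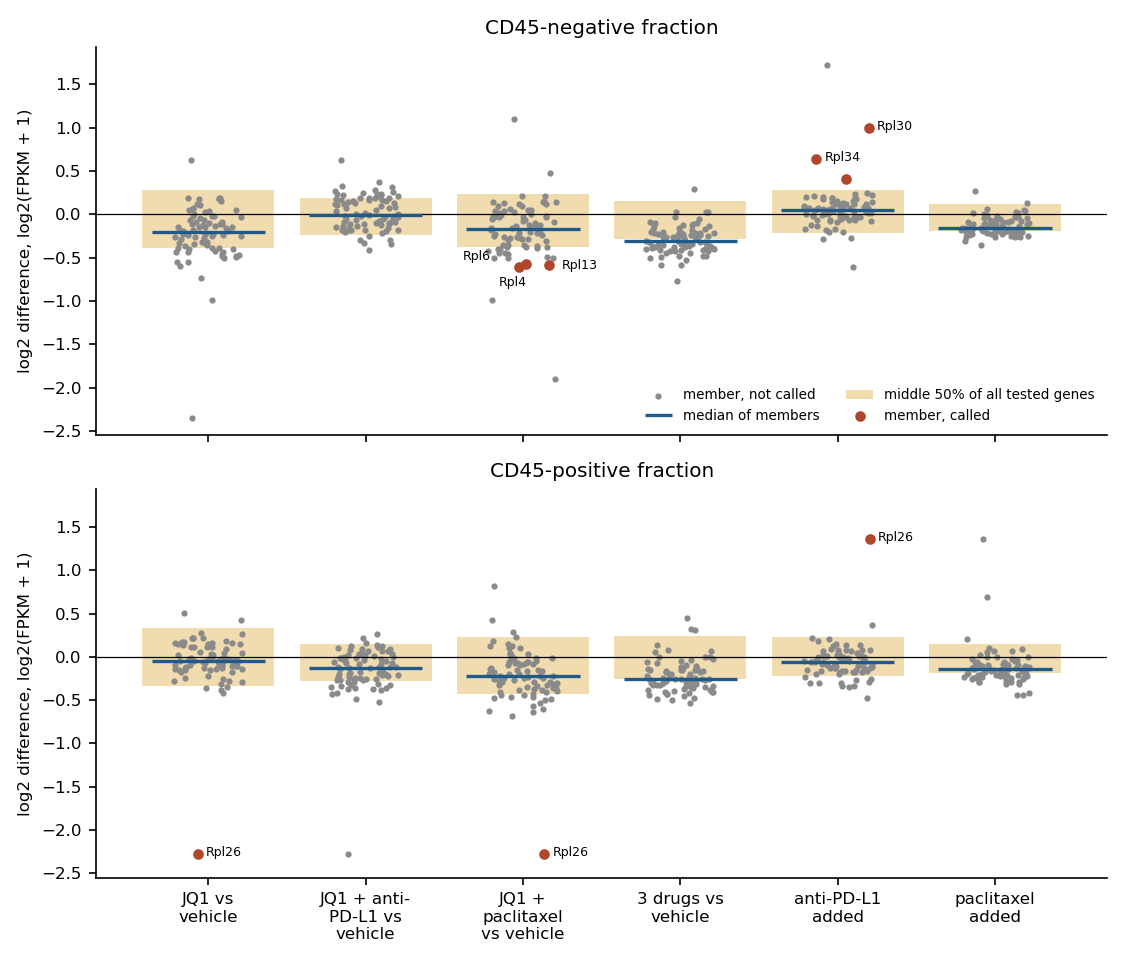
Difference of each ribosomal protein gene on the log2(FPKM + 1) scale (vertical axis) in 6 comparisons, CD45-negative fraction above and CD45-positive below; points are genes, red points passed the test, blue lines are the median of the set and tan bands hold the middle 50% of all tested genes. The medians for JQ1 with paclitaxel are -0.17 and -0.23, and those for the 3-drug group -0.31 and -0.26.

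Members differed from the median member in a like order in both fractions under JQ1 with paclitaxel. Measured against the median member, Rpl4 was 0.44 lower in the CD45-negative and 0.17 lower in the CD45-positive fraction, Rpl35 0.27 and 0.32 lower, and Rps19 0.23 and 0.31 lower. On the other side Rps12 was 0.33 and 0.75 higher, Rps20 0.32 and 0.61 higher, Rps15a 0.38 and 0.44 higher, Rps10 0.19 and 0.55 higher, and Rplp0 0.18 and 0.50 higher. These genes were chosen after their values were seen. Over 79 genes, without Rps27 and Rpl26, Pearson's r of these differences between the fractions was 0.66 and Spearman's rho 0.75. This is a description across genes, which are not independent replicates, and the fractions come from shared tumours but separate libraries. Over the same genes r was 0.42 and rho 0.45 under JQ1 alone, 0.45 and 0.48 under JQ1 with anti-PD-L1, and -0.00067 and -0.06 in the 3-drug group, all against the same vehicle libraries.

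Against the median member, limma called 1 member in the CD45-negative fraction, where 6.39% of all tested genes were called. Rpl39 was at 161 and 104 FPKM in vehicle and at 165, 160.5 and 221 after JQ1 with paclitaxel, and lay 0.65 ± 0.18 (SE, adjusted p = 0.042) above the median member, with overlap of the FPKM values. Rpl4 (adjusted p = 0.11), Rpl6 (adjusted p = 0.11) and Rpl13 (adjusted p = 0.055) did not pass this test. Rps12, a small-subunit gene that was at 186 and 173 FPKM in CD45-negative vehicle libraries and at 189, 208 and 205 after treatment, did not pass either (adjusted p = 0.19). In the CD45-positive fraction it was at 84.1 and 58.7 FPKM against 94.4 and 95.5 (adjusted p = 0.10).

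**Figure D4:**
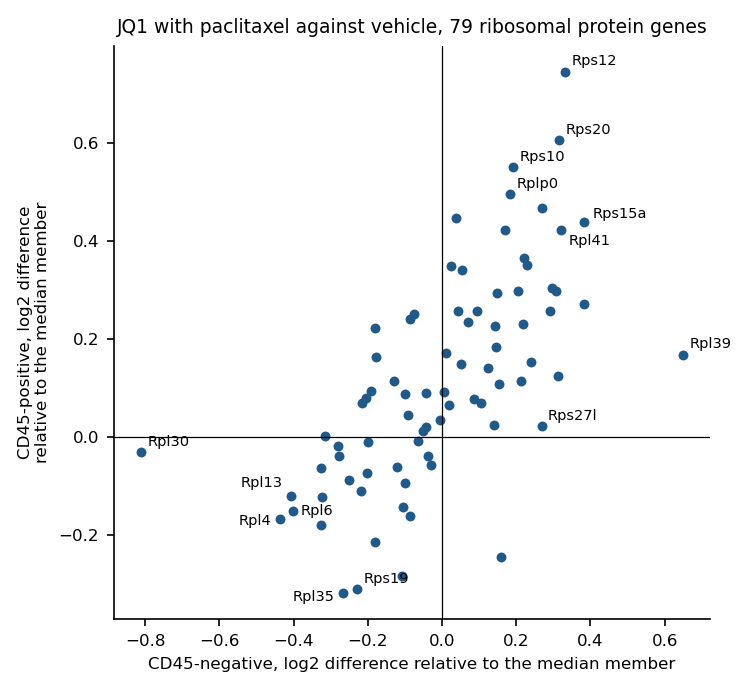
Difference between JQ1 with paclitaxel and vehicle relative to the median ribosomal protein gene (log2) in the CD45-negative (horizontal) and the CD45-positive fraction (vertical); each point is 1 of 79 genes, Rps27 and Rpl26 left out. Rps12 lies at 0.33 and 0.75 and Rpl4 at -0.44 and -0.17, and r is 0.66.

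The 3-drug group had lower values for nearly the whole set without a gene passing the test. Of the CD45-negative genes 77 of 81 genes had negative differences, with a median of -0.31, against -0.07 for all tested genes and -0.12 for other genes of like level. By limma 0 members were called, where 1.63% of all tested genes were called. Of the members 16 had an unadjusted p under 0.05, as had 2108 of all 10780 tested genes. Every treated library lay below every vehicle library for 39 of 81 genes (48.1%), against 24.2% of all tested genes. Rpl3, which lies near the peptidyl transferase centre, was at 495 and 504 FPKM in vehicle and at 358, 290.2 and 354 in the 3-drug group, a difference of -0.59 ± 0.16 (SE, adjusted p = 0.074, 95% interval -0.93 to -0.25). The 3-drug values of Rpl3 lay below all vehicle values. Without library 2 of the 3-drug group the median member was 0.15 lower. Rpl26 differed by -0.77 ± 1.05 (adjusted p = 0.73), Rps27 by 0.29 ± 0.61 (adjusted p = 0.83) and Rpl34 by 0.03 ± 0.24 (adjusted p = 0.96), all with overlap and with a copy.

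The CD45-positive 3-drug libraries lay on the same side. There 73 of 82 genes had negative differences, with a median of -0.26, against 0.01 for all tested genes and -0.0081 for 1921 other genes of like level. By limma 0 members were called, with 0.135% of all tested genes called. Of the members 8 had an unadjusted p under 0.05, as had 903 of all 10340 tested genes. Both treated libraries lay below both vehicle libraries for 52 of 82 genes (63.4%), which held for 20.5% of all tested genes. Rpl39 was at 94.0 and 88.9 FPKM in vehicle and at 70.5 and 56.2 in the 3-drug group, a difference of -0.53 ± 0.19 (SE, adjusted p = 0.49) without overlap. Rpl7l1 was 0.32 ± 0.22 higher (adjusted p = 0.68) and Rpl26 0.45 ± 0.34 higher (adjusted p = 0.71). Without vehicle library 1 the median was -0.13 and without vehicle library 2 it was -0.41.

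Scaling bears on these directions. When each library was set to the median of all tested genes, the median member kept its sign in all comparisons except JQ1 with anti-PD-L1 in the CD45-negative fraction, where it went from -0.0029 to 0.0099. Relative to the median member, by contrast, the median of all tested genes was 0.31 higher in the CD45-positive and 0.22 higher in the CD45-negative 3-drug group. The data are shares of each library, so that these descriptions cannot be told apart.

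The 2 groups that received anti-PD-L1 were then set against the 2 treated groups that did not. Among CD45-negative cells 3 of 81 genes rose and 0 fell, where 25% of all tested genes were called. Rpl30 was at 14.3 and 41.8 FPKM in JQ1 and 20.3, 16.9 and 43.1 in JQ1 with paclitaxel, and at 47.9 and 51.4 in JQ1 with anti-PD-L1 and 73.7, 42.4 and 41.5 in the 3-drug group. Its difference was 0.998 ± 0.30 (SE, limma adjusted p = 0.027), and 0.09 (adjusted p = 0.67) once summed with Gm12191. Rpl34 differed by 0.64 ± 0.17 (adjusted p = 0.016), and by 0.14 (adjusted p = 0.50) once summed with Rpl34-ps1. So neither remained called with its copy.

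These counts depended on single libraries. With 1 value per mouse code no member was called. Without 1 library of JQ1 or of JQ1 with anti-PD-L1 a lone library stands for its group, and the number of called members moved with the library left out. Measured against the median member 3 genes were higher, among them Rpl30 (by 0.97) and Rpl34 (by 0.62), and 1 gene, Rps2, was 0.31 lower (limma adjusted p = 0.038), where 12.4% of all tested genes were called. The median member differed by 0.05, and by -0.07 without JQ1 library 1.

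CD45-positive cells gave 1 called gene of 82 for the same contrast, with 0.832% of all tested genes called, and it was Rpl26 at 1.37 ± 0.24 (SE, limma adjusted p = 0.048). Both JQ1 with anti-PD-L1 libraries were at 0.0007 and 0.0009 FPKM, like the JQ1 and the JQ1 with paclitaxel libraries, and only the 3-drug libraries were higher, at 8.52 and 3.65. Summed with Gm15772 the difference was -0.04 (adjusted p = 0.89). The median member differed by -0.06, while that of other genes of like level was 0.18 higher.

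Paclitaxel, compared in the same way over the 4 treated groups, called 0 of 81 CD45-negative genes by limma, against 3.56% of all tested genes. Here 1 member had an unadjusted p under 0.05, as had 2202 of all 10780 tested genes. Even so 73 of 81 genes were lower, with a median of -0.15 against -0.04 for all tested genes and 0.02 for other genes of like level. Without JQ1 library 2 the median was -0.03 and without JQ1 library 1 it was -0.26. The paclitaxel side holds library 2 of the 3-drug group, the lowest library for 56 of 81 genes, and no value without it is given here. Rpl22l1 was at 126 and 166 FPKM in JQ1 and 131 and 153 in JQ1 with anti-PD-L1, and at 134, 119 and 132 in JQ1 with paclitaxel and 115, 79.9 and 101 in the 3-drug group. With overlap, it differed most among the lower genes, at -0.35 ± 0.12 (SE, adjusted p = 0.12), then Rps12 at -0.30 ± 0.16 (adjusted p = 0.30). Rps27 (0.27 ± 0.43, adjusted p = 0.77) and Rpl34 (0.13 ± 0.17, adjusted p = 0.71) were the highest.

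Of the CD45-positive genes 72 of 82 were lower in the groups with paclitaxel, with a median of -0.14 against -0.01 for all tested genes. By limma 0 were called, with 0.0387% of all tested genes called. Of the members 6 had an unadjusted p under 0.05, as had 977 of all 10340 tested genes. Rps13 was at 154 and 128 FPKM in JQ1 and 134 and 124 in JQ1 with anti-PD-L1, and at 95.8 and 105 in JQ1 with paclitaxel and 106 and 88.1 in the 3-drug group. These values did not overlap, and the difference was -0.44 ± 0.12 (SE, adjusted p = 0.33). Rps27 differed by -0.44 ± 0.34 (adjusted p = 0.75), Rps4l by 0.69 ± 0.19 (adjusted p = 0.32) and Rpl26 by 1.37 ± 0.24 (adjusted p = 0.16), each with overlap.

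The P-stalk and Rpsa, the small-subunit protein also known as the laminin receptor precursor, were followed for their roles. Rplp0 was at 336 and 391 FPKM in CD45-negative vehicle libraries, 296 and 434 in JQ1, 358 and 356 in JQ1 with anti-PD-L1, 350.1, 363 and 382 in JQ1 with paclitaxel, and 323, 232 and 331 in the 3-drug group. Only in the 3-drug group did all values lie below both controls, at -0.31 (limma adjusted p = 0.38). Rplp1 (median 486, range 312 to 559 FPKM) and Rplp2 (median 448, range 325 to 520.3) differed from vehicle by -0.21 to 0.18 and by -0.06 to 0.27 over the 4 treated groups. CD45-positive libraries had for Rplp0, Rplp1 and Rplp2 medians of 214, 311 and 277 FPKM, and their differences from vehicle ran from -0.26 to 0.21. Rpsa had a median of 219 FPKM (139 to 249) in the CD45-negative and of 95.6 (76.6 to 119) in the CD45-positive fraction, and its differences from vehicle ran from -0.28 to 0.22. None of the stalk genes nor Rpsa passed the test in any comparison.

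Rpl5 and Rpl11, the Mdm2-binding members, were on the lower side of the set under JQ1 with paclitaxel. Rpl5 was at 87.1 and 91.8 FPKM in CD45-negative vehicle libraries and at 61.3, 65.0 and 62.4 with JQ1 and paclitaxel, a difference of -0.50 (limma adjusted p = 0.099). It was at 46.5 and 43.1 FPKM against 28.5 and 34.6 in the CD45-positive fraction, also -0.50 (adjusted p = 0.16). Neither pair of groups overlapped. Rpl11 was at 241 and 241 FPKM against 191, 203 and 194 in the CD45-negative fraction (-0.30, adjusted p = 0.18) and at 189 and 155 against 128 and 135 in the CD45-positive fraction (-0.38, adjusted p = 0.26). In the 3-drug group Rpl5 was at 86.8, 58.6 and 68.1 FPKM among CD45-negative libraries (-0.34, adjusted p = 0.35) and at 43.4 and 37.0 among CD45-positive ones (-0.15, adjusted p = 0.81), and Rpl11 differed by -0.35 (adjusted p = 0.20) and -0.34 (adjusted p = 0.61), beside set medians of -0.31 and -0.26.

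The paralog pairs of the set differed in level. Rpl22l1, the paralog of Rpl22, had a median of 129 FPKM (79.9 to 166) and Rpl22 one of 15.9 (8.99 to 19.0) in the CD45-negative libraries, and 44.6 (36.3 to 63.8) and 10.2 (9.03 to 13.3) in the CD45-positive libraries. The lowest Rpl22l1 value thus lay above the highest Rpl22 value in either fraction. Rps27l, a paralog of Rps27 and a p53 target, had 197 to 297 FPKM in CD45-negative libraries and 128 to 196 in CD45-positive ones, and differed from vehicle by -0.30 to 0.15. Rpl7l1 (28.2 to 40.1 FPKM) stood well below Rpl7 (181 to 328) in the CD45-negative fraction, and at 18.2 to 29.96 below 130 to 165 in the CD45-positive fraction. Rps4x was at 263 and 261 FPKM in CD45-negative vehicle libraries and at 184, 179 and 191 after JQ1 with paclitaxel, a difference of -0.50 (limma adjusted p = 0.075) without overlap.

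Both fractions of 10 tumours were sequenced, and their tables allow levels to be set side by side but not tested, since each table stands on its own scale. In each tumour 72 to 81 of 81 genes were higher in the CD45-negative fraction, with medians of 0.41 to 0.98 on the log2 scale, and the share of ribosomal protein genes was 1.41 to 2.13 times that of the CD45-positive fraction. The counts and medians were not computed for all tested genes, so they show no trait particular to the members. The lowest ratios, 1.41 and 1.55, were those of the tumours whose CD45-negative libraries were low (JQ1 library 1 and library 2 of the 3-drug group). Vehicle tumours had ratios of 1.64 and 1.80, and the JQ1 with anti-PD-L1 tumours 2.10 and 2.13.

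The difference between the fractions was uneven over the genes. Rpl22l1 was among the most unequal, higher in the CD45-negative fraction in 10 of 10 tumours by a median of 1.63 (lowest 0.82, highest 1.83), at medians of 131 and 44.6 FPKM, whereas its paralog Rpl22 differed by 0.40 and was higher in 9 of 10 tumours. Rps26 (1.31), Rps2 (1.30), Rpl13 (1.29) and Rpsa (1.17) were also higher in 10 of 10 tumours. Rpl22l1, Rps26 and Rps2 each share coding runs with another listed gene. These other genes reached at most 13.1, 7.21 and 1.32 FPKM in the CD45-negative fraction. Rpl26 (2.81), Rpl30 (1.49) and Rpl34 (1.36) had large medians too, each for 1 row of a pair. Summed with its copy, Rpl34 ran from 379 to 677 FPKM over CD45-negative libraries, above the 186 to 241 of CD45-positive ones. The Rpl30 sums, 137 to 250 FPKM against 48.0 to 92.7, did not overlap either. Of these 3 pairs, the Rpl26 sums overlapped over all libraries, at 105 to 151 FPKM against 65.3 to 106. Within each tumour the Rpl26 sum was still higher in the CD45-negative fraction, as in library 2 of the 3-drug group (105 against 82.1 FPKM). The Rps27 sums, 380.0 to 688 FPKM against 318 to 639, overlapped as well. At the other end Rps9 differed by 0.21 and was higher in 7 of 10 tumours, at medians of 504 and 443 FPKM. Rpl37a differed by 0.29 and Rps29 by 0.34, both higher in 10 of 10 tumours.

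**Figure D5:**
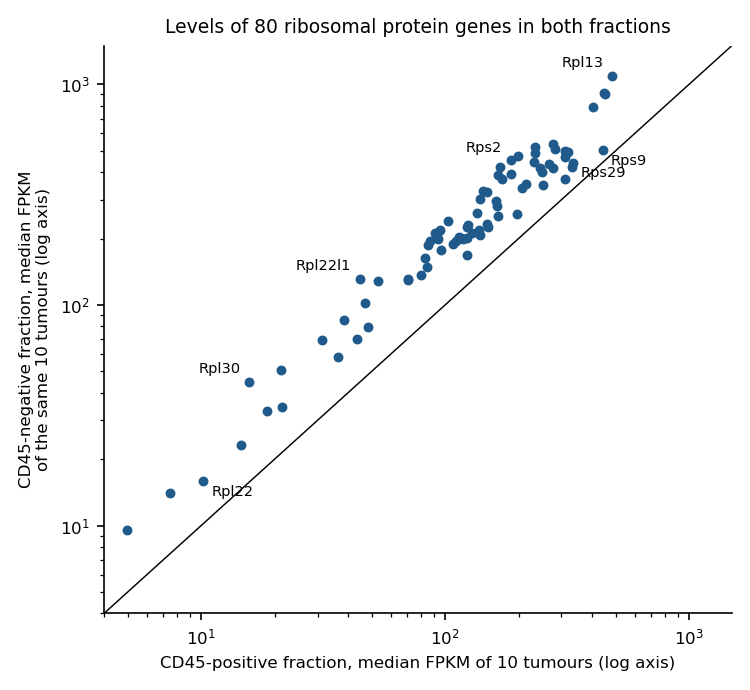
Median FPKM over 10 tumours of 80 ribosomal protein genes in the CD45-positive (horizontal, log axis) and the CD45-negative fraction (vertical, log axis), Rpl26 left out; the line marks equal values. Rpl22l1 lies far above the line at 44.6 and 131 FPKM, and Rps9 lies close to it at 443 and 504.

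Other genes of the translation apparatus were described from lists beside the set. Where anti-PD-L1 was added in the CD45-negative fraction, 15 of 28 ribosome biogenesis genes (assembly factors and RNA polymerase I genes) rose and 0 fell, with a median of 0.40, where 1512 of all 10780 tested genes rose and 1179 fell (25% called); 7 of 77 mitochondrial ribosomal protein genes rose and 4 fell, and 0 of 21 other TOP genes were called by limma (5 with an unadjusted p under 0.05). In that contrast 4140 of all tested genes had an unadjusted p under 0.05. The 3 called ribosomal protein genes of 81 stand beside these counts, with a median of 0.05. Under JQ1 alone in the same fraction 3 of 28 biogenesis genes fell and 0 rose, and 8 of 77 mitochondrial ribosomal protein genes fell and 1 rose, where 1043 of all tested genes fell and 549 rose (14.8% called). Under JQ1 with paclitaxel 5 of 28 biogenesis genes fell and 0 rose, and again 8 mitochondrial ribosomal protein genes fell and 1 rose, where 1323 of all tested genes fell and 570 rose (17.6% called). In the 3-drug group the median cytosolic ribosomal protein gene was 0.31 lower. There the median biogenesis gene was 0.11 higher and the median mitochondrial ribosomal protein gene 0.32 lower. By limma 0 were called in either list, where 1.63% of all tested genes were called. An unadjusted p under 0.05 was found for 0 and 23 of them and for 2108 of all 10780 tested genes. Fau, which encodes a small-subunit protein fused to a ubiquitin-like protein, does not carry the names searched for; it had 301 to 464 FPKM in CD45-negative libraries and 209 to 309 in CD45-positive ones.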

How the data were processed

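RNA-seq covered 22 libraries from bead-separated cells of EMT6 tumours, grouped as the labels give them. Per the submitters' processing notes, the aligner was STAR 2.5.1b and the build mm9; how gene values were computed is not given in the sources used here. Per fraction the authors deposited 1 table of FPKM; the unit was inferred from the values, since the label speaks of counts. FPKM hold no read totals, so that the spread between libraries alone gives the precision.

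Tested genes reached 1 FPKM in 2 libraries or more of their fraction. A limma 3.58.1 model (R 4.3.3) with a mean-variance trend was fitted per fraction to log2(FPKM + 1) of the 5 groups, so that differences understate changes of low genes. Tests were two-sided, with Benjamini-Hochberg adjustment over all tested genes and a threshold of 0.05, and were checked on simulated data. No test was made between the fractions. "Added" contrasts set the mean of both groups with a drug against the mean of both treated groups without it. Genes of like level lie between the 10th and 90th percentile of the members' levels.

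The members and lists were chosen with earlier results of these data known. Named genes were called members (or, where none was called, the 2 highest and 2 lowest), those of highest, lowest and most variable level, stalk genes, Mdm2 binders and paralog pairs; a few more were chosen after their values were seen. Some genes that met this rule are not reported here, although they stay in all counts and medians. Start windows came from RefSeq and copies from GENCODE M21. Alternatives were another pseudocount (0.1), no level filter, centring, depth as a covariate, 1 value per mouse code and each library left out. Centring on the median member, leaving out both low libraries and summing copies were added after seeing the data. Python 3.11.15, pandas 2.3.3 and Matplotlib 3.10.9 were used.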

Additional observations from a re-analysis of the deposited data

Results flagged for a closer look

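For 2 genes described here the libraries of a treated group lay without overlap on opposite sides of vehicle in the 2 fractions. Of 81 members in both fractions this held for 2 under JQ1 with anti-PD-L1, 1 under JQ1 with paclitaxel and 0 in each other comparison. Its share over all tested genes was not computed, so these counts show no excess of members. Under JQ1 with paclitaxel, 29.2% of all tested CD45-negative genes lay below vehicle without overlap and 19.4% above. In the CD45-positive fraction 3468 of 10340 tested genes (33.5%) lay below and 1953 above. The difference between the fractions was not tested. Under JQ1 with anti-PD-L1 this held for Rpl39, which was 0.63 higher in the CD45-negative fraction (161 and 104 FPKM in vehicle, 177 and 229 treated) and differed by -0.21 in the CD45-positive fraction (94.0 and 88.9 against 81.0 and 76.4). Under JQ1 with paclitaxel it held for Rpl35a, which differed by 0.14 (57.0 and 51.5 FPKM against 58.7, 60.7 and 59.9) and by -0.19 (44.5 and 38.2 against 35.8 and 36.1). None of these 4 differences was called in its own fraction. Groups of 2 or 3 libraries are too small for a test of single outlying libraries.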

How the results depend on the processing

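No paired analysis was possible because the treatments compared share no mouse code and the labels give no replicate numbers; tumour codes pair only the fractions, which were set side by side without a test. Of the values for the counts of called genes under the alternatives, 170 stayed within 1.5 times the count given in the report and 52 did not. With 1 value per mouse code the counts became 0 in the CD45-negative fraction for JQ1 with paclitaxel (3 in the report) and anti-PD-L1 added (3), and 0 in the CD45-positive fraction for JQ1, JQ1 with paclitaxel and anti-PD-L1 added (1 each), where fewer values enter the fit. With depth as a covariate the CD45-negative count for anti-PD-L1 added was 1, and the 3 CD45-positive counts were 0. Without the level filter it was 1 for anti-PD-L1 added (CD45-negative), and 0 for JQ1 and anti-PD-L1 added (CD45-positive). With copies summed it was 1 for anti-PD-L1 added (CD45-negative), and 0 for all 3 CD45-positive comparisons, where Rpl26 turned to -0.0433 for anti-PD-L1 added. Relative to the median member it was 1 for JQ1 with paclitaxel (CD45-negative) and 0 for anti-PD-L1 added (CD45-positive). Without both low CD45-negative libraries it was 14 for JQ1 with paclitaxel, and the median under JQ1 turned to 0.0054, as it did without JQ1 library 1 alone (without JQ1 library 2 it was -0.4358).

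Leaving out 1 library at a time gave 0 to 13 called genes for JQ1, 0 to 4 for JQ1 with paclitaxel and 0 to 9 for anti-PD-L1 added in the CD45-negative fraction. In the CD45-positive fraction it gave 0 to 1 for JQ1, JQ1 with anti-PD-L1, JQ1 with paclitaxel and anti-PD-L1 added. A lone library left in a group is assumed there to vary like the other groups. The share of all tested genes called in these reduced fits is not given here, so the counts show no excess of members. With all CD45-negative libraries kept, 14.8% of all tested genes were called for JQ1. That share was 17.6% for JQ1 with paclitaxel and 25% for anti-PD-L1 added. The counts of all tested genes that passed the threshold moved as well: with 1 value per mouse code they went from 1592 to 21 for JQ1, from 1893 to 274 for JQ1 with paclitaxel and from 2691 to 738 for anti-PD-L1 added in the CD45-negative fraction, and to 0 in all CD45-positive comparisons. Read totals are not known, so what depth limits cannot be given.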
